A study of Homo sapiens with 9 samples.

Results

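Integrator, the cleavage and polyadenylation machinery, termination factors and NELF together decide where an RNA polymerase II transcript ends. The 42 genes described here encode these factors. They were taken from the list of their symbols, matched to the Ensembl identifiers of the deposited table, and all 42 were found among 61853 genes listed. All of them also passed the expression filter that left 19591 genes for testing. The rule used symbols and no measured value, although earlier results of these data were known when the list was drawn up.

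All libraries came from 293T, a human line established from embryonic kidney and carrying the SV40 large T antigen. One group of 3 libraries came from cells given a scramble shRNA (Scramble, genotype WT in the labels). The other group of 3 came from cells given the shRNA DIS3-sh1, labelled as a DIS3 knockdown. DIS3 is the catalytic nuclease of the nuclear RNA exosome. Both groups are the same line and both received an shRNA, and the labels used here do not give the vector, the time after delivery or whether a clone was picked. Total RNA was depleted of ribosomal RNA before sequencing, so the libraries hold RNA with and without poly(A) tails. The group DIS3-sh2 is not analysed here. The series title names circular RNAs as its subject, and the values below are per gene, with circular and linear reads not told apart. The groups' replicates are called biological by the submitters, and p-values measure the spread between these 3 and 3 libraries of 1 line.

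As background, most messenger RNAs end where the cleavage and polyadenylation specificity factor (CPSF) cuts the nascent transcript at a polyadenylation signal and a poly(A) polymerase extends the new end. The exonuclease XRN2 then degrades the RNA still held by the polymerase, which helps it to terminate. Integrator is a separate complex with its own endonuclease and a bound phosphatase. It cuts small nuclear RNAs and the transcripts of polymerases paused near promoters, and many such products without a poly(A) tail are substrates of the nuclear exosome. NELF holds the polymerase in the paused state.

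The libraries held between 19800892 and 23532148 counts, and the smallest count of any of the 42 genes in any library was 198. Levels are in CPM, counts scaled to library size by TMM, where 1 CPM rested on 19.8 to 23.5 counts. DIS3 itself went from 176, 186 and 177 CPM with the scramble shRNA to 26.6, 27.8 and 27.9 CPM with DIS3-sh1, so the target stood at 15.3% of its Scramble level. The 6 genes used as markers of 293 cells were all present, and 3 rose and 3 fell (marker levels are CPM of the plain library totals). KRT8, a keratin gene, went from between 4.40 and 4.83 CPM in Scramble to between 32.2 and 33.7 CPM in DIS3-sh1. LIN28B fell from between 163 and 173 CPM to between 101 and 106 CPM, and INA from between 47.6 and 50.5 CPM to between 21.4 and 22.5 CPM. Their summed level, mostly VIM, was 1541 to 1550 CPM in Scramble and 1587 to 1603 CPM in DIS3-sh1. Of 6 markers of other cell types, 5 stayed under 1 CPM in every library. The sixth, the collagen gene COL1A1, rose from between 14.1 and 15.0 CPM to between 23.7 and 27.6 CPM, and the part of these marker changes in the results below was not tested. DIS3-sh1 replicate 1 stood apart from the other 2 of its group. The chi-square of counts per degree of freedom was 5.83 and 5.92 against them, where every other pair within a group gave 1.61 to 1.98. The share of counts in small structural RNAs was 4.95% to 5.15% under Scramble and 8.25% to 9.38% under DIS3-sh1, highest in that library. The mitochondrial share was 2.20% to 2.23% under Scramble and 2.78%, 3.42% and 3.47% under DIS3-sh1, lowest of its group in the same library. Without small structural, ribosomal and mitochondrial genes, the numbers of the 42 genes called in each direction were as large as with them.

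Most of the 42 transcripts were lower in DIS3-sh1, by small to moderate amounts. Of the 42, 29 fell, 5 rose and 8 did not pass the test, and the median log2 fold change was -0.28. A gene is called when its adjusted p is under 0.05 in edgeR's quasi-likelihood test, adjusted by Benjamini-Hochberg over all 19591 genes, and adjusted p-values below come from that fit. Errors of fold changes are standard errors (SE). Of all genes tested, 67.0% were called, 32.6% lower and 34.5% higher, with a median of 0.02. The 42 genes all code for protein and average over 10 CPM. Of the 10145 tested genes of that kind, 79.9% were called, 47.0% lower and 32.9% higher, with a median of -0.09. The Scramble and DIS3-sh1 libraries did not overlap for 34 of the 42, against 69.8% of all genes and 81.0% of these coding genes. The share of lower calls was thus 69.0% in the 42 genes, above that of both backgrounds, a difference that was not tested. INTS6 alone fell by more than 2-fold, and CLP1, PAPOLA, PCF11, RBBP6 and CPSF6 were the other genes to fall by more than 1.5-fold.

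**Figure D1:**
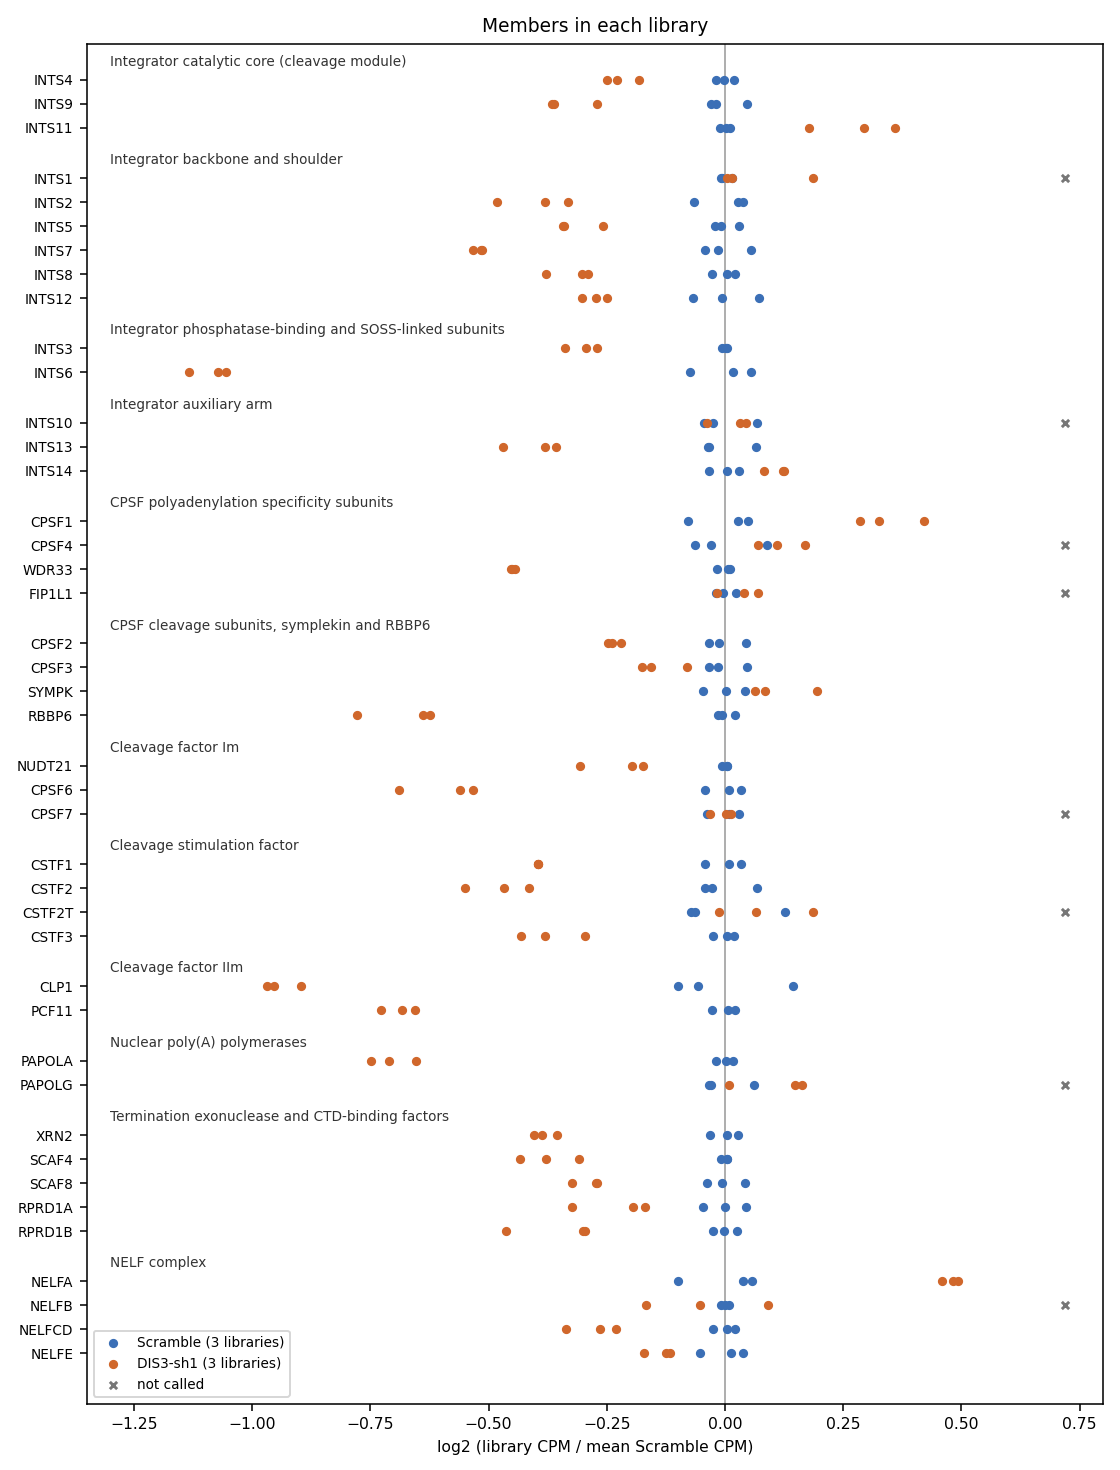
Each row is 1 of the 42 genes, and each point is 1 library, placed on the x axis at the log2 ratio of its CPM to the mean of the 3 Scramble libraries. DIS3-sh1 libraries (orange) lie left of the Scramble libraries (blue) for 29 called genes and right of them for 5, and a cross marks the 8 genes that were not called.

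Read counts depend on scaling, which sets the bulk of genes near no change, and fewer cells or less RNA per cell cannot be told apart from a change per transcript. With upper-quartile scaling in place of TMM, which moved the median of all genes by 0.08, 27 of the 42 fell and 10 rose. INTS1, CPSF4, FIP1L1, CSTF2T and PAPOLG gained a call in that setting, each higher, and CPSF3 and NELFE lost theirs.

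The sequences shown next are those upstream of 2 related gene pairs whose members parted under DIS3-sh1: INTS6 and its paralog INTS6L, and the poly(A) polymerase genes PAPOLA and PAPOLG. Each is the 250 bases before the transcript start listed in RefSeq (GRCh38.p14), 5′ to 3′ on the gene's strand. GENCODE 29 starts INTS6 and PAPOLA further upstream than these RefSeq starts. Capitals mark matches, on either strand, to the letters GGGCGG (a GC box) or CCAAT. INTS6 lies on the minus strand of chromosome 13 (window chr13:51453037-51453286), INTS6L on the plus strand of chromosome X (chrX:135520410-135520659), PAPOLA on the plus strand of chromosome 14 (chr14:96502126-96502375) and PAPOLG on the plus strand of chromosome 2 (chr2:60756018-60756267).
INTS6: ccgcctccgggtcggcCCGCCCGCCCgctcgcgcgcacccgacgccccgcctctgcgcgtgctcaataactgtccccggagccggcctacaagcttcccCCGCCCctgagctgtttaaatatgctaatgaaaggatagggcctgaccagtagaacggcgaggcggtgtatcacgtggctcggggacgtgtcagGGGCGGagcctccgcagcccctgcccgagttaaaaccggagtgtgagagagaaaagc
INTS6L: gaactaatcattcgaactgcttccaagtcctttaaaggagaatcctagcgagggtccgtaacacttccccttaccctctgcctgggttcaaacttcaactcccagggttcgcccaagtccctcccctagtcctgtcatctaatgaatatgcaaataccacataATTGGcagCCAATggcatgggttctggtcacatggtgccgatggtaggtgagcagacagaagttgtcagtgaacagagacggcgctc
PAPOLA: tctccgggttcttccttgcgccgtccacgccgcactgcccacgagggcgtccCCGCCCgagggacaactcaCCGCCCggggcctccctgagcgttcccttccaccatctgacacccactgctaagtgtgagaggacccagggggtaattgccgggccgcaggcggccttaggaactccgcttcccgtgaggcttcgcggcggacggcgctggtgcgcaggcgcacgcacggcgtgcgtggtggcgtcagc
PAPOLG: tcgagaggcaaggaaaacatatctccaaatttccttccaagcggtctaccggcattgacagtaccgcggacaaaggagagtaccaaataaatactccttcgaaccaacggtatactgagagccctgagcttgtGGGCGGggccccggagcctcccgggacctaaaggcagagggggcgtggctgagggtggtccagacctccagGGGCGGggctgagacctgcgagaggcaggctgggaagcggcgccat
The INTS6 window held 4 GC boxes, of which 2 share letters. The INTS6L window held none, and instead 2 CCAAT boxes on opposite strands that point away from each other. PAPOLA and PAPOLG held 2 GC boxes each. GC boxes are common: 62.5% of the 17351 such windows of tested genes and 42.6% of all 35116 windows held one, and CCAAT was in 32.9% and 32.0%.

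Windows of RefSeq were found for 36 of the 42 genes, 42 windows in all. The palindrome TGACGTCA, the cyclic AMP response element, was in 7 of these 42 windows, against 2.44% of windows of tested genes and 1.65% of all windows. The windows belonged to 6 genes: INTS7, CSTF3, RBBP6, RPRD1A, XRN2 and CSTF1. XRN2 has 2 overlapping windows that share 1 match. All 6 are among the genes that fell, as 30 of the 42 windows belong to such genes. The motif was picked from 9 after values were seen, so these counts are a description. The windows of the 42 genes also had a median GC content of 66.0%, against 58.0% of all windows. The GC content of windows of tested genes was not computed, so a background of expressed genes is missing here. The 28 bases around each match are shown so that the flanks can be compared, with the palindrome in capitals.
INTS7: cgcgccaaacTGACGTCAcgctctctga
CSTF3: gccagggtagTGACGTCAgcccaggaat
RBBP6: gtgcgctttgTGACGTCAgccgccccgc
RPRD1A: tgggtccctgTGACGTCActgccggccg
XRN2: ggcggcgccgTGACGTCActtccgttct
CSTF1: aacagcccctTGACGTCAagcttgacgc
They lie at chr1:212035721-212035748 (minus strand), chr11:33161618-33161645 (minus), chr16:24539462-24539489 (plus), chr18:36067566-36067593 (minus), chr20:21303267-21303294 (plus) and chr20:56392465-56392492 (plus). A match of letters is a description of the sequence, and binding was not measured here. The search took both strands and was added after values were seen. Of the other motifs, GGGCGG was in 28 of the 42 windows, CCAAT in 14 and CCGGAAG (an ETS motif) in 11, the last against 13.3% of windows of tested genes. TATAAA was in 0 of them, against 6.13%. AAGATGG (a YY1 motif), GAANNTTC (a heat shock element), TGATGNAA (an amino acid response element) and the NRF1 motif were in 1 window each.

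Among the 14 Integrator subunits there were 10 falls, 2 rises and 2 genes without a call, and the median log2 fold change was -0.31. The share of falls was 71.4%, beside 47.0% of coding genes of at least 10 CPM, a difference that was not tested. The 3 subunits of the cleavage module moved apart. INTS11 is the endonuclease, INTS9 its inactive partner and INTS4 the scaffold that holds both. INTS11 measured 43.0, 43.2 and 42.6 CPM in Scramble and 55.1, 48.6 and 52.7 CPM in DIS3-sh1, a log2 fold change of 0.28 ± 0.05 (adjusted p = 2.81e-05). INTS9 went the other way, from 25.0, 23.9 and 23.7 CPM to 18.8, 20.1 and 18.8 CPM (-0.33 ± 0.07, adjusted p = 0.000113). INTS4 fell less, from 44.8, 45.3 and 46.0 CPM to 38.2, 38.7 and 40.0 CPM (-0.22 ± 0.05, adjusted p = 0.000494). None of the 3 genes had overlapping groups, which was also so for 81.0% of coding genes of at least 10 CPM. The ratio of INTS11 to INTS9 counts, which no scaling of libraries can alter, was 1.72, 1.81 and 1.80 in Scramble and 2.92, 2.42 and 2.81 in DIS3-sh1. This pair was chosen after its values were seen.

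Among the subunits that form the backbone and shoulder of Integrator, 5 of 6 fell, beside 47.0% of coding genes of at least 10 CPM. The difference was not tested. INTS7, a backbone subunit, had the largest fall of the 6, from 91.4, 89.7 and 95.9 CPM to 63.8, 64.6 and 64.6 CPM (-0.52 ± 0.04, adjusted p = 2.16e-12). INTS2, another backbone subunit, measured 91.1, 97.2 and 97.9 CPM in Scramble and 68.3, 75.8 and 73.3 CPM in DIS3-sh1 (-0.40 ± 0.04, adjusted p = 2.58e-09). INTS8, which takes part in binding the phosphatase PP2A, measured 99.9, 98.7 and 96.6 CPM and 75.6, 79.8 and 80.5 CPM (-0.32 ± 0.04). In these 3 genes every DIS3-sh1 library was below every Scramble library. Groups were also without overlap, in either direction, for 81.0% of coding genes of at least 10 CPM. INTS5, the partner of INTS8 in the shoulder, and INTS12, a PHD finger protein, fell by smaller amounts, with log2 fold changes of -0.31 ± 0.06 and -0.27 ± 0.06. Exons of CCNE2 on the other strand overlap 20.7% of the exonic bases of INTS8, and exons of ARHGEF38 overlap 13.2% of those of INTS12. Whether reads were counted by strand is not given in the sources used here, so these values may include reads of the opposite gene. INTS1, the largest subunit, was not called (0.07 ± 0.04, adjusted p = 0.0882). Its groups overlapped through DIS3-sh1 replicate 3, and DIS3-sh1 replicate 1 was the highest of the 6 libraries at 217.6 CPM. Without DIS3-sh1 replicate 2 or 3 INTS1 was called higher (adjusted p = 0.0313 and 0.0222). Without DIS3-sh1 replicate 1, its log2 fold change was 0.01 (adjusted p = 0.699).

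INTS6 had the largest change of all 42 genes. The subunit helps to tether PP2A to Integrator, and the gene (ENSG00000102786.15) spans 51354077 to 51454264 on chromosome 13 in GRCh38. It measured 74.1, 81.0 and 79.0 CPM in Scramble and 37.6, 37.1 and 35.6 CPM in DIS3-sh1, a log2 fold change of -1.09 ± 0.05 (adjusted p = 1.86e-18), or 47.1% of the Scramble level. Over 13 alternative settings its log2 fold change stayed between -1.13 and -1.01. INTS3, which Integrator shares with the SOSS complex of single-stranded DNA repair, fell from 168, 169.6 and 169.9 CPM to 140.3, 138 and 134 CPM (-0.30 ± 0.03, adjusted p = 1.37e-09). In both genes the libraries within a group lay close together and far from the other group.

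The auxiliary arm of Integrator, INTS10, INTS13 and INTS14, showed one gene in each class. INTS13 fell from 85.1, 91.3 and 85.2 CPM to 63.0, 67.0 and 68.1 CPM (-0.40 ± 0.04, adjusted p = 2.3e-09). INTS14 measured 64.4, 65.5 and 62.7 CPM in Scramble and 69.9, 70.0 and 68.0 CPM in DIS3-sh1 (0.11 ± 0.04, adjusted p = 0.0283). That small rise lost its call under 6 of 13 alternatives, among them DESeq2 (adjusted p = 0.159), RLE scaling (0.0519) and leaving out Scramble replicate 1 or 3 or DIS3-sh1 replicate 2 (0.0732, 0.143 and 0.0732). INTS10 measured 63.5, 58.8 and 59.5 CPM and 62.5, 62.0 and 59.0 CPM, with no separation of the groups and a log2 fold change of 0.01 ± 0.05 (adjusted p = 0.833).

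The 19 genes of the cleavage and polyadenylation machinery gave 12 falls, 2 rises and 5 genes without a call (median -0.24). The share of falls was 63.2%, beside 47.0% of coding genes of at least 10 CPM, also untested. The 4 subunits that recognise the polyadenylation signal and bring in the poly(A) polymerase did not share a direction. WDR33, a direct reader of the signal, fell from 162, 159 and 162 CPM to 118, 119 and 118 CPM (-0.45 ± 0.03, adjusted p = 2.16e-13). Exons of SFT2D3 lie opposite 25.6% of the exonic bases of WDR33, so reads of SFT2D3 may be part of that value. CPSF1, the large scaffold subunit, rose from 138, 128 and 140.2 CPM to 182, 170.0 and 165 CPM (0.35 ± 0.04, adjusted p = 1.63e-09). CPSF4, the zinc finger subunit, measured 36.4, 37.3 and 40.5 CPM and 42.8, 40.0 and 41.1 CPM and was not called (0.12 ± 0.06, adjusted p = 0.0656). It was called without Scramble replicate 3 (0.16, adjusted p = 0.0328). FIP1L1, which contacts the poly(A) polymerase, was not called either (0.03 ± 0.05, adjusted p = 0.587). Exons of LNX1 lie opposite 27.7% of its exonic bases, and exons of AC058822.1 on the same strand overlap 18.0% of them.

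The cutting module of CPSF was mostly lower, with 3 falls and 1 rise, where 47.0% of coding genes of at least 10 CPM fell. The difference was not tested. RBBP6, an activator of cleavage, had the largest fall, from 161, 157 and 158 CPM to 92.4, 102 and 103 CPM (-0.68 ± 0.04, adjusted p = 3.38e-16). CPSF2, the inactive partner of the endonuclease, fell from 187, 190.1 and 198 CPM to 161, 165 and 162 CPM (-0.24 ± 0.03, adjusted p = 9.25e-08). CPSF3, the endonuclease itself, changed least of these 3, from 123, 116 and 118 CPM to 106, 113 and 107 CPM (-0.14 ± 0.04, adjusted p = 0.00196). With upper-quartile scaling CPSF3 had a log2 fold change of -0.06 (adjusted p = 0.178). Symplekin (SYMPK), the scaffold of this module, rose slightly (0.12 ± 0.04, adjusted p = 0.00832), and lost its call with DESeq2 (adjusted p = 0.0643) and without Scramble replicate 1 (0.088). The ratio of CPSF1 to CPSF2 counts went from between 0.68 and 0.74 in Scramble to between 1.02 and 1.12 in DIS3-sh1, a pair again chosen after its values were seen.

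Cleavage factor Im binds upstream of the cut site through NUDT21 and carries CPSF6 or CPSF7 as its larger subunit. NUDT21 fell from 149.9, 151 and 151 CPM to 122, 134 and 131 CPM (-0.22 ± 0.04, adjusted p = 2.05e-06). CPSF6 fell from 247, 256 and 260.4 CPM to 158, 176 and 172 CPM (-0.59 ± 0.03, adjusted p = 7.2e-16). CPSF7 measured 137, 133 and 139 CPM and 138, 137 and 133 CPM, with overlapping groups (-0.01 ± 0.03, adjusted p = 0.896). DIS3-sh1 replicate 1 was the lowest of its group for NUDT21 and CPSF6.

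The cleavage stimulation factor reads the element downstream of the cut through CSTF2 or its paralog CSTF2T, with CSTF3 and CSTF1 as scaffolds. CSTF2 fell from 61.4, 66.3 and 62.0 CPM to 47.5, 45.7 and 43.2 CPM (-0.48 ± 0.05, adjusted p = 9.71e-10). CSTF1 fell from 65.9, 64.8 and 62.6 CPM to 49.0, 49.0 and 49.0 CPM (-0.40 ± 0.05, adjusted p = 8.01e-09). CSTF3 fell from 92.1, 93.0 and 90.3 CPM to 68.1, 74.8 and 70.5 CPM (-0.37 ± 0.04, adjusted p = 5.43e-09). All 3 genes thus stood between 71.9% and 77.5% of their Scramble level. Their groups did not overlap, as for 81.0% of coding genes of at least 10 CPM. CSTF2T, which is made from an intronless copy, was not called (0.08 ± 0.07, adjusted p = 0.308).

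Both genes of cleavage factor IIm fell, and both were among the 6 largest falls. The share of falls in coding genes of at least 10 CPM was 47.0%, and a difference was not tested with these 2 genes. CLP1, an RNA kinase that also serves in tRNA splicing (ENSG00000172409.7, chromosome 11, 57648992 to 57661868), had the lowest counts of the 42 genes. It measured 18.0, 21.4 and 18.6 CPM in Scramble and 9.98, 9.88 and 10.4 CPM in DIS3-sh1 (-0.94 ± 0.09, adjusted p = 7.32e-11). PCF11, which ties cleavage to the polymerase tail and to termination, fell from 112, 114 and 109.7 CPM to 67.6, 71.0 and 69.7 CPM (-0.69 ± 0.04, adjusted p = 5.85e-16). PCF11-AS1 covers 15.2% of the exonic bases of PCF11 on the other strand and was itself not called (0.10 ± 0.20).

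PAPOLA, the main nuclear poly(A) polymerase (ENSG00000090060.19, chromosome 14, 96501433 to 96567111), was the most abundant of the 42 transcripts in CPM. It measured 426, 422 and 416 CPM in Scramble and 251, 257 and 268 CPM in DIS3-sh1 (-0.70 ± 0.03, adjusted p = 3.77e-20), or 61.4% of the Scramble level. PAPOLG, its less abundant nuclear relative, measured 43.6, 46.6 and 43.7 CPM and 44.9, 49.9 and 49.5 CPM and was not called (0.11 ± 0.05, adjusted p = 0.0777). Without DIS3-sh1 replicate 1, PAPOLG was called higher (0.16, adjusted p = 0.00871).

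All 5 termination factors fell, each by less than 1.5-fold. Lower calls also made up 47.0% of coding genes of at least 10 CPM, and the difference was not tested. XRN2 fell from 194, 197 and 189 CPM to 146, 151 and 148 CPM (-0.38 ± 0.03, adjusted p = 3.46e-12). SCAF4, which with SCAF8 binds the polymerase tail and restrains early polyadenylation, fell from 160.3, 162 and 162 CPM to 119, 130.2 and 124 CPM (-0.37 ± 0.04, adjusted p = 5.99e-11). SCAF8 fell from 153, 162 and 157 CPM to 126, 131 and 130.3 CPM (-0.29 ± 0.03, adjusted p = 8.45e-09). Exons of TIAM2 on the same strand overlap 13.0% of the exonic bases of SCAF8, so reads of TIAM2 may be part of that value. RPRD1A and RPRD1B, which bind the tail and bring in a phosphatase, had log2 fold changes of -0.23 ± 0.04 and -0.35 ± 0.05. The 5 genes stood between 76.7% and 85.4% of their Scramble level. None had overlapping groups, which was also so for 81.0% of coding genes of at least 10 CPM.

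The 4 NELF subunits did not move together. NELFA (ENSG00000185049.16, chromosome 4, 1982714 to 2041903) had the largest rise of the 42 genes, from 55.3, 49.7 and 54.6 CPM to 74.9, 74.3 and 73.2 CPM (0.48 ± 0.05, adjusted p = 2.09e-10). NELFCD fell from 99.9, 103 and 102 CPM to 86.7, 80.5 and 84.6 CPM (-0.28 ± 0.04, adjusted p = 3.84e-07). NELFE, the RNA-binding subunit, fell from 65.2, 62.3 and 66.3 CPM to 59.2, 59.6 and 57.3 CPM (-0.14 ± 0.05, adjusted p = 0.00947), which became -0.06 (adjusted p = 0.276) with upper-quartile scaling. The ratio of NELFA to NELFE counts was 0.80 to 0.85 in Scramble and 1.25 to 1.28 in DIS3-sh1. This pair, of a gene that rose and a gene that fell, was also chosen after its values were seen. NELFB was not called (-0.04 ± 0.05, adjusted p = 0.49), and its 3 DIS3-sh1 libraries ranged from 72.1 to 86.2 CPM around a Scramble range of 80.4 to 81.5 CPM. Without DIS3-sh1 replicate 1 it was called lower (-0.11, adjusted p = 0.0293).

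Several of these factors exist as pairs of related genes, and the pairs were compared by the ratio of the 2 counts within each library. INTS6L, the paralog of INTS6, is not one of the 42 and was added after values were seen. It rose from 31.5, 33.8 and 34.8 CPM to 45.3, 52.8 and 45.1 CPM (0.51 ± 0.06, adjusted p = 1.18e-08) while INTS6 fell. The ratio of INTS6L to INTS6 was 0.426, 0.418 and 0.441 in Scramble and 1.21, 1.42 and 1.27 in DIS3-sh1, a 3.03-fold change, so INTS6L had the lower count of the pair in every Scramble library and the higher count in every DIS3-sh1 library. PAPOLG to PAPOLA went from 0.102, 0.110 and 0.105 to 0.179, 0.194 and 0.185, a 1.76-fold change. CPSF7 to CPSF6 went from 0.556, 0.520 and 0.535 to 0.872, 0.778 and 0.774, a 1.5-fold change. In these 3 pairs and in CSTF2T to CSTF2 (1.47-fold), the gene with fewer counts in Scramble gained share under DIS3-sh1. SCAF8 to SCAF4 changed by 1.06-fold and RPRD1B to RPRD1A by 0.917-fold, with overlapping groups in the latter. The exact two-sided permutation test over 3 and 3 libraries gave p = 0.10 for 5 of the 6 pairs, the smallest value it can give, and 0.30 for RPRD1B to RPRD1A. Adjusted over the 6 pairs these were 0.12 and 0.30, so no pair can pass a threshold of 0.05 by this test. Reads shared between paralogs may have been split by the authors' counting.

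**Figure D2:**
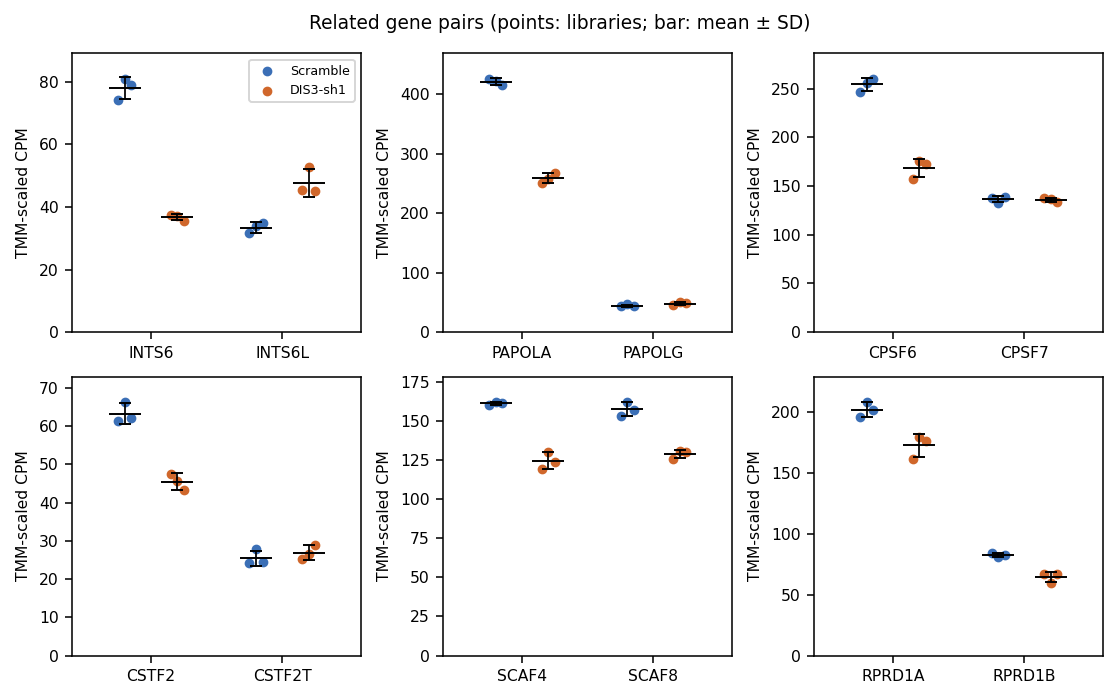
Each panel gives 1 pair of related genes, with TMM-scaled CPM on a y axis that starts at 0, points for libraries, and bars for the mean ± SD of 3 Scramble (blue) and 3 DIS3-sh1 (orange) libraries. INTS6, PAPOLA, CPSF6 and CSTF2 are lower in DIS3-sh1 while their partners are not, and both genes of the SCAF and RPRD1 pairs are lower.

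Levels can be compared between genes only per length of transcript. Divided by the length of the longest principal transcript in GENCODE 29, PAPOLA stood highest in Scramble at 93.2 CPM per kb, followed by XRN2 at 56.3 and CPSF3 at 50.8 CPM per kb. CSTF2T (6.20), CLP1 (7.94) and INTS9 (9.51 CPM per kb) stood lowest. Within Integrator these levels ran from INTS9 to INTS3 at 32.3 CPM per kb. Divided by all annotated exonic bases instead, XRN2 was highest at 56.3 CPM per kb, and INTS6 was lowest at 3.06, since its annotated exons sum to 25509 bases. The order of levels per length therefore depends on which transcripts are counted as the gene.

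Genes that work with these factors were taken from 5 lists. Of these 52 genes, 42 were called lower and 6 higher, and their median log2 fold change was -0.33. Of 18 genes of pausing and elongation, all 18 fell, beside 32.6% of all genes tested and 47.0% of coding genes of at least 10 CPM. The elongation factor genes SUPT5H (-0.08 ± 0.04) and SUPT6H (-0.09 ± 0.03) had the smallest falls. SUPT5H lost its call under 7 of 13 alternatives, among them DESeq2, upper-quartile scaling and leaving out any library but DIS3-sh1 replicate 2, and SUPT6H lost its call under 2, upper-quartile scaling and leaving out DIS3-sh1 replicate 2. CDK12, a kinase of the polymerase tail whose loss is known to favour early polyadenylation, fell from 318, 313 and 314 CPM to 159, 164 and 161 CPM (-0.97 ± 0.03, adjusted p = 2.75e-23). Its relative CDK13 fell too (-0.83 ± 0.04). HEXIM1, the inhibitor of the elongation kinase P-TEFb, fell from 43.8, 43.7 and 47.9 CPM to 17.2, 18.8 and 17.8 CPM (-1.33 ± 0.06, adjusted p = 7.36e-18).

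Of 10 phosphatase and poly(A)-binding genes, 8 fell and 2 rose. Beside this list and the next, 47.0% of coding genes of at least 10 CPM fell and 32.9% rose. WDR82 (-0.80 ± 0.03), a subunit of a PP1 phosphatase complex that slows the polymerase at gene ends, SSU72 (-0.76 ± 0.04), a phosphatase of the polymerase tail, and PABPC4 (-0.53 ± 0.03) had the smallest p-values among the falls. The cytoplasmic poly(A)-binding protein gene PABPC1 rose from 1351, 1354 and 1373 CPM to 1724, 1878 and 1877 CPM (0.43 ± 0.03, adjusted p = 3.68e-15), and the PP1 catalytic gene PPP1CB rose less (0.25 ± 0.04). Of 8 Integrator-associated genes, 6 fell, among them the PP2A catalytic gene PPP2CA (-0.63 ± 0.04) and the SOSS genes NABP1 (-0.65 ± 0.06) and INIP (-0.57 ± 0.05). BRAT1, an Integrator-binding protein gene, rose (0.31 ± 0.06), and INTS15, a late-recognised subunit, was not called (-0.05 ± 0.08, adjusted p = 0.565).

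Of 7 genes that process histone transcripts, 5 fell, 1 rose and 1 was not called (71.4% lower, beside 47.0% of coding genes of at least 10 CPM). LSM11, a protein of the U7 particle, was the one that rose, from 38.6, 35.8 and 36.6 CPM to 72.2, 70.2 and 72.2 CPM (0.95 ± 0.05, adjusted p = 3.7e-17), whereas its partner LSM10 fell (-0.43 ± 0.07). The exonuclease gene ERI1 (-0.74 ± 0.06) and the stem-loop binding protein gene SLBP (-0.31 ± 0.04) fell too. Of 9 other termination genes, 5 fell and 2 rose (55.6% and 22.2%). Of coding genes of at least 10 CPM, 47.0% fell and 32.9% rose, so these shares lie near that background. NKRF, a regulator of XRN2 (-0.65 ± 0.04), and ZC3H4, which ends short non-coding transcripts (-0.36 ± 0.04), fell. DXO, a decapping nuclease gene, rose (0.32 ± 0.10). RPRD2 also rose (0.09 ± 0.04, adjusted p = 0.0247) and lost its call under 6 of 13 alternatives, among them DESeq2 (adjusted p = 0.147) and leaving out Scramble replicate 1 or 3 or DIS3-sh1 replicate 3.

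**Figure D3:**
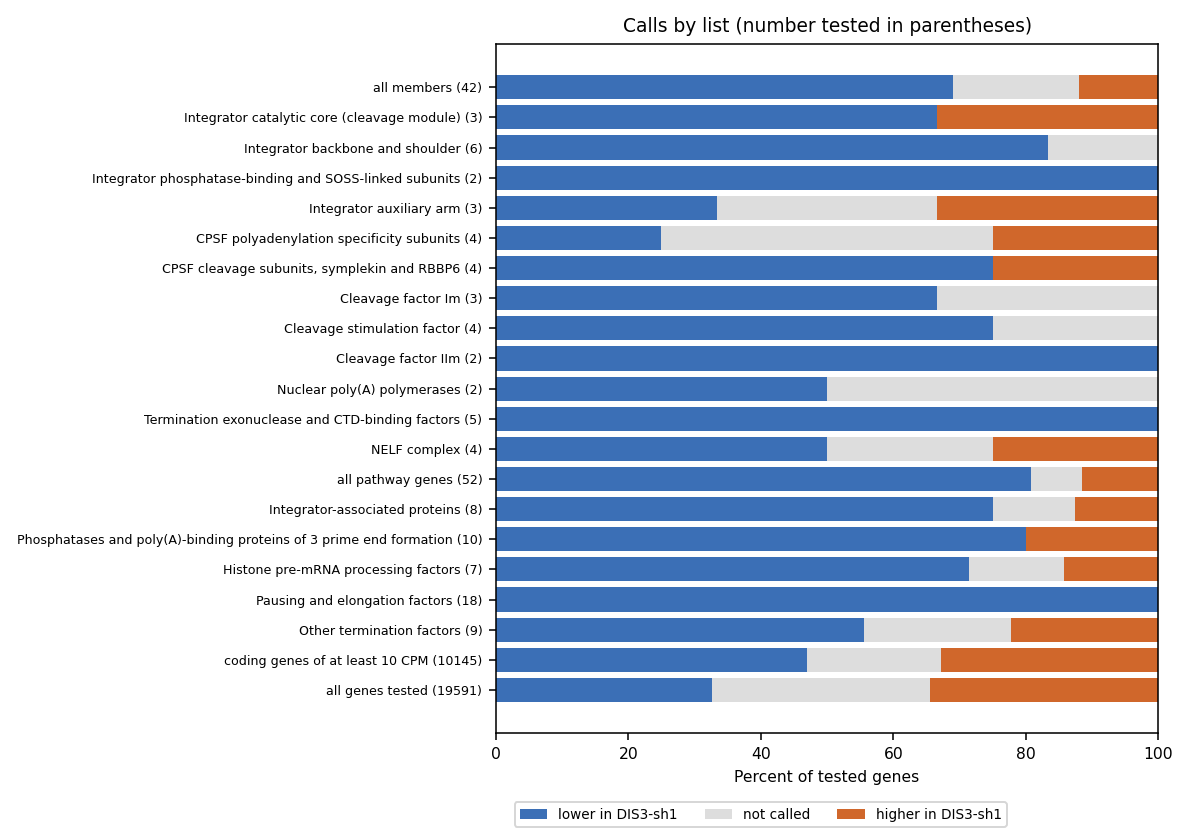
Stacked bars give the percent of tested genes called lower, not called or higher in DIS3-sh1, for the role lists of the 42 genes, for the 5 partner lists and for the 2 backgrounds, with the number tested beside each name. Lists with 2 to 6 genes move in large steps. The 42 genes together show 69.0% lower, against 47.0% of coding genes of at least 10 CPM and 32.6% of all genes tested.

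**Figure D4:**
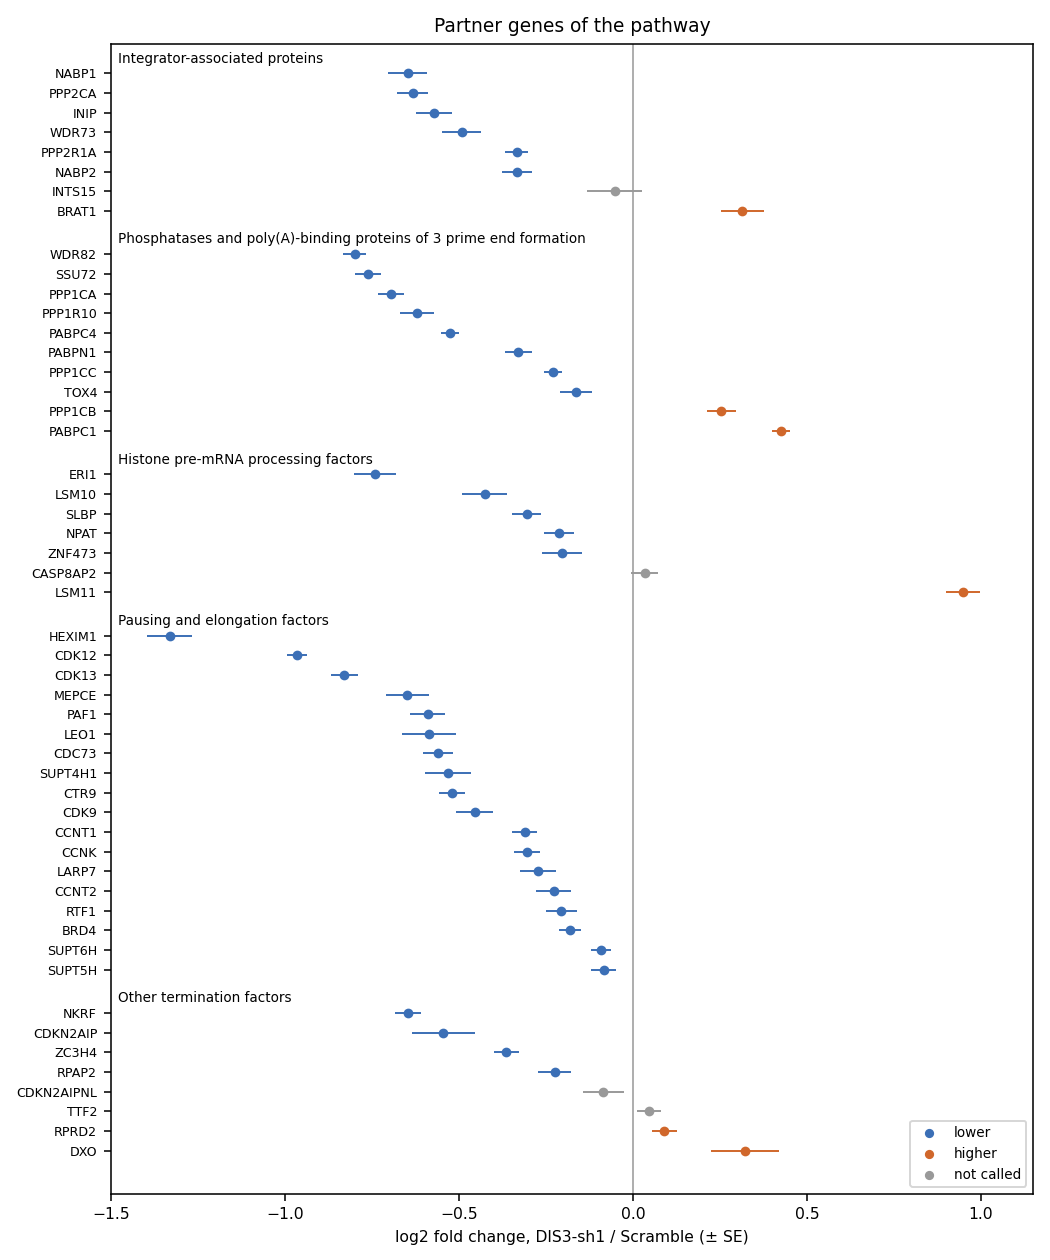
Points are log2 fold changes of DIS3-sh1 against Scramble and bars their SE for the partner genes reported here, ordered within each list. All 18 pausing and elongation genes lie left of 0, and LSM11 and PABPC1 lie farthest right.

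Many of the 42 genes start near the start of a gene on the other strand. GENCODE 29 places the start of an opposite-strand gene within 1 kb of the start of 21 of the 42. Starts on either side were taken, so some of these pairs overlap. Of these neighbours, 15 coding genes were tested: 4 rose, 6 fell and 5 had no call, and their median log2 fold change was -0.03. Of all coding genes of at least 10 CPM, 32.9% rose and 47.0% fell, with a median of -0.09. Neither call was thus more frequent among the neighbours than in that background. The starts of INTS7 and DTL, a gene of the replication-coupled ubiquitin ligase, lie 11 bases apart. DTL rose from 119, 127 and 118 CPM to 149, 144 and 145 CPM (0.26 ± 0.04, adjusted p = 1.17e-07) while INTS7 fell. INTS13 fell and its neighbour FGFR1OP2 rose (0.31 ± 0.05), with starts 57 bases apart. CSTF1 and the mitotic kinase gene AURKA, 34 bases apart, both fell (-0.57 ± 0.04 for AURKA), as did CPSF3 and ITGB1BP1 (-0.47 ± 0.06). NELFE and SKIC2, a helicase gene of cytoplasmic exosome decay, also both fell (-0.39 ± 0.06). NELFA rose and its neighbour C4orf48 was not called (-0.03 ± 0.19). These examples were chosen after their values were seen.

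Non-coding neighbours were few and weakly expressed. All 3 that were tested rose, where 34.8% of 2445 long non-coding genes with a mean under 5 CPM did, and with 3 genes no more can be read from it. CSTF3-DT went from 20 counts over the 3 Scramble libraries to 60 over the 3 DIS3-sh1 libraries (1.65 ± 0.41, adjusted p = 0.000842), PAPOLA-DT from 52 to 100 counts (0.99 ± 0.29, adjusted p = 0.00378) and an antisense gene at XRN2 (0.59 ± 0.27, adjusted p = 0.0492). The last of these lost its call under 7 of 13 alternatives, among them DESeq2, limma-voom and leaving out Scramble replicate 1, Scramble replicate 2 or DIS3-sh1 replicate 1. PAPOLA-DT lost its call only without DIS3-sh1 replicate 3 (adjusted p = 0.0521). INTS6-AS1, found by its name, rose from 96 to 248 counts (1.42 ± 0.21, adjusted p = 6.88e-07) while INTS6 fell. PCF11-AS1, found in the same way, was not called (0.10 ± 0.20, adjusted p = 0.692) beside a lower PCF11. The pseudogenes INTS4P1 and INTS4P2, copies of INTS4, were not called, and CPSF1P1, a pseudogene of CPSF1, rose with CPSF1 (0.31 ± 0.11, adjusted p = 0.0154), and lost its call with DESeq2 or when Scramble replicate 2 or DIS3-sh1 replicate 1 was left out. Reads of CPSF1 and its copy may be split between them.

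**Figure D5:**
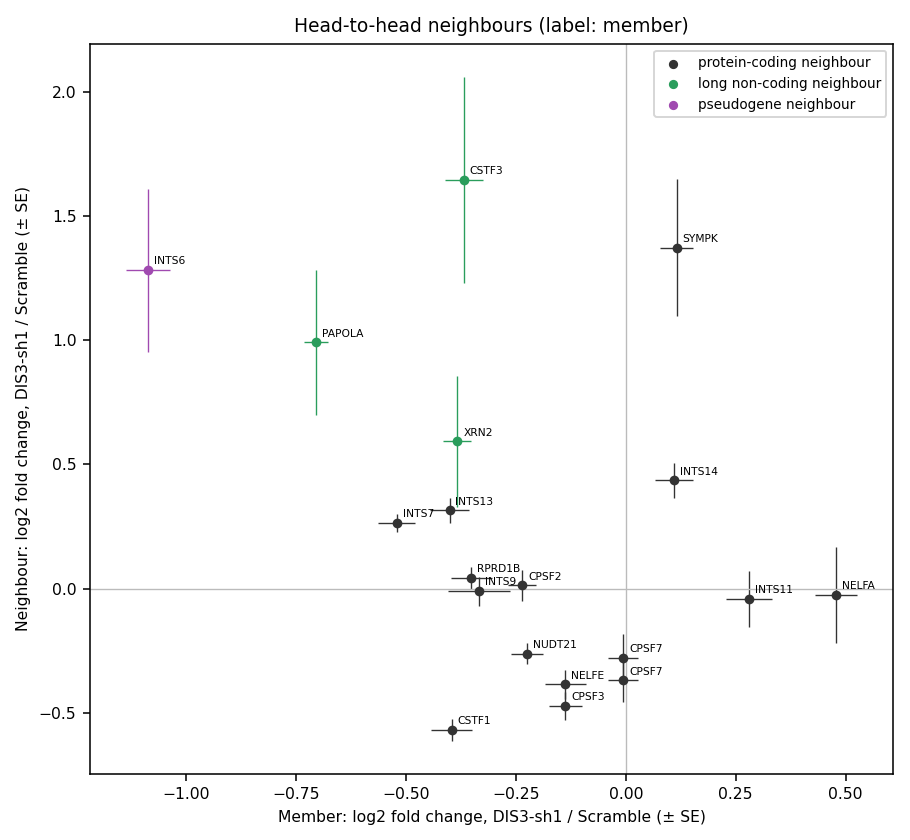
Each point pairs 1 of the 42 genes (x axis, log2 fold change) with its neighbour on the other strand (y axis, log2 fold change), with SE bars, and is labelled with the former. Long non-coding neighbours (green) and the pseudogene at INTS6 (purple) lie above 0, whereas coding neighbours (black) lie on both sides.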

How the data were processed

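RNA sequencing counts of 3 Scramble and 3 DIS3-sh1 libraries were analysed. The values the authors deposited are expected counts for each gene, and 53.24% to 56.03% of those above 0 in a library are whole. The genome build (hg38) and the tools HISAT2 2.1.0, featureCounts 1.5.1, Bowtie2 2.3.5 and SAMtools are named in the submitters' processing notes. Their roles and settings, the annotation and the use of strand are not given in the sources used here. Fractional counts are a sign that some reads were split between genes, which makes paralogs and overlapping genes uncertain. Another 3 columns, whose names match no label, were used in no step, so the DIS3-sh2 results that had been planned were not computed.

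Values were rounded to whole counts (totals moved by at most 0.00137%) and tested with edgeR 4.0.16 in R 4.3.3. The steps were the default expression filter by group, TMM scaling, a model of group alone and the two-sided quasi-likelihood F-test with robust dispersions, with Benjamini-Hochberg adjustment over 19591 genes and a threshold of 0.05. The SE of a log2 fold change is its size over the root of its F statistic. The test was tried on simulated data with 200 changed genes. Alternatives used other scalings, filters and gene sets, a replicate block, limma 3.58.1 (voom), DESeq2 1.42.0 and leaving out each library.

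The members and gene lists were chosen with earlier results of these data known. Values per library are given for up to 3 members of each role list with the smallest p, and up to 3 called genes in each direction for each partner list. Genes outside this rule, such as INTS6L, were chosen after their values were seen. Gene positions are those of GENCODE 29 (GRCh38), where 58298 of 61853 identifiers were found, and promoter sequences from RefSeq on GRCh38.p14. Promoters of INTS5, INTS8, INTS9, INTS10, CPSF1 and SCAF4 were not used here. A gene of the partner lists is counted but not reported here by name.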

Additional observations from a re-analysis of the deposited data

How the results depend on the processing

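Of the 42 genes, 30 kept their direction and their side of the threshold under all 13 alternatives. The median log2 fold change of the 42 genes was -0.282. It was -0.295 with RLE scaling, -0.202 with upper-quartile scaling and -0.298 with DESeq2, and ran from -0.298 to -0.278 when each library was left out in turn. The number of the 42 called higher was 10 with upper-quartile scaling, 3 with DESeq2 and 3 to 6 with a library left out (3 without Scramble replicate 1), and the number called lower was 27 to 30 under every alternative. INTS10, CPSF7 and NELFB changed sign, and none was called where its sign differed. NELFB was called only without DIS3-sh1 replicate 1, as lower (-0.1064). INTS10 gave -0.0004 with RLE scaling, -0.003 with DESeq2 and -0.0141 to 0.0432 with a library left out. CPSF7 gave 0.0747 with upper-quartile scaling and -0.0292 to 0.0088 with a library left out, and NELFB gave 0.0414 and -0.1064 to 0.023. The cause was not tested. The median level per length was 23.68 CPM per kb by the longest principal transcript, an alternative chosen after seeing the data, and 15.06 by all exons. Replicate numbers are shared by the groups, but same-numbered libraries deviated together with correlations of only 0.037, 0.014 and 0.010. Each library correlated best with its own number, but for Scramble replicates 2 and 3 the next values were 0.008 and 0.006. The deviations sum to 0 within a group, so these correlations are not independent. They cannot show whether the libraries were paired. With the replicate number as a block, 13166 genes were called in place of 13130, and of the 42 again 29 were lower and 5 higher. A fit of only the 2 groups compared is the fit reported, and was not run separately. At the lowest depth 1 CPM is 19.8 counts, which limits the non-coding neighbours more than the 42 genes.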
